A study of Mus musculus with 460 samples.

Results

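The EGF family ligands and ErbB receptors were followed through 460 single mouse cells as 9 genes out of the 48440 in the deposited count table. The genes were chosen by name: 5 ligands (Nrg1, Hbegf, Areg, Ereg and Btc) and 4 receptors (Egfr, Erbb2, Erbb3 and Erbb4). All 9 were matched by symbol. Each cell is a sample of its own in the labels, which call it a cancer-associated fibroblast (CAF) of lung adenocarcinoma from 1 strain of mice. The source is given as "tCAFs", an abbreviation the labels do not spell out, and no treatment, age, sort or animal is named. All cells therefore form 1 group and count as 1 sample, so every difference below is a description of these cells and no test. Intervals of levels and ratios cover counting error, and those of shares of cells treat cells as independent draws. There is no second genotype or untreated group.

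Ligands of the EGF family are made as membrane-anchored precursors and are released by metalloproteases, the sheddases. They bind receptor tyrosine kinases of the ErbB family, which signal as pairs through adaptors such as Grb2 and Shc1 to the RAS-ERK and PI3K pathways. HB-EGF, betacellulin and epiregulin can bind both EGFR and ERBB4, amphiregulin binds EGFR, and neuregulin 1 binds ERBB3 and ERBB4. ERBB2 has no known ligand and serves as the partner of the others, while ERBB3 has little kinase activity of its own. In the lung these ligands act on epithelial and tumour cells, and stromal cells are one of their sources.

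The cells were divided by the rule given for these genes, into the 44.1% of cells in which the count of Rgs5, a pericyte gene, was above that of Pdgfra, a fibroblast receptor gene, and the other 55.9%. No cell had equal counts. The 2 counts were at least 2-fold apart in 84.7% of cells with Rgs5 over Pdgfra and in 84.8% of the others. Of the 9 pericyte markers 8 were at least 2-fold higher in cells with Rgs5 over Pdgfra, Rgs5 included, and of the 8 fibroblast markers 4 were at least 2-fold lower, Pdgfra included, while Thy1 had 393.5 CPM in cells with Rgs5 over Pdgfra and 341.97 in the others. As examples, Notch3, a receptor of mural cells, had 1017.5 CPM (counts scaled to 1000000 summed counts) in cells with Rgs5 over Pdgfra, against 167.8 in the others. Dcn, the matrix gene for decorin, had 229.7 CPM in cells with Rgs5 over Pdgfra, against 1327.7 in the others. Total counts per cell ran between 25029 and 240496, with a median of 76944 in cells with Rgs5 over Pdgfra and of 96654 in the others. RNA of other cell types was also present: Sftpc, a surfactant gene of alveolar epithelium, was counted in 80.9% of cells. It was scarce in 2 runs of neighbouring columns of the table, which hold 27.6% of the cells and where 33.9% of cells had a count of it, against 98.8% of the cells elsewhere. Other markers moved with the division: all 6 immune markers counted in at least 5% of cells were at least 2-fold higher in cells with Rgs5 over Pdgfra, where the sum of the list was 411.6 CPM over all cells (median cell 76.2, range 0 to 8925), against 154.6 CPM in the others (median cell 70.1, range 0 to 5799). Of the 5 mesothelial markers 3 were at least 2-fold higher there, with a summed level of 101.7 CPM (range 0 to 8320) against 42.8 CPM (range 0 to 886.5). The median cell had 0 CPM of the mesothelial list in both sets. Ratios are given below without cells with a count of Ptprc, Epcam or Pecam1 (immune, epithelial and endothelial markers). Others leave out the cells richest in epithelial markers. None was computed without the cells rich in mesothelial markers. Beyond the ratios given for subsets of cells, the part of such RNA in the differences below was not tested. A few cells were rich in Hand2 and Hoxa10, genes of which Hoxa10 is a posterior patterning gene not usual for lung stroma, and ratios without them are given where they differ.

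Of the 5 ligands, 3 were abundant and 2 were scarce. Hbegf, the gene for heparin-binding EGF, led with 242.8 CPM over all cells (exact Poisson 95% interval 238.2 to 247.6). Nrg1, the gene for neuregulin 1, had 109.9 CPM (106.7 to 113.05) and Ereg, the gene for epiregulin, 102.4 CPM (99.4 to 105.5). Single cells ranged from 0 to 1329 CPM for Nrg1 and from 0 to 2960 CPM for Ereg, so the order of these 2 sums need not hold in any one cell. Areg, the gene for amphiregulin, had 8.78 CPM and Btc, the gene for betacellulin, 1.20 CPM.

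Per kilobase of annotated exon, the order of the ligands was Hbegf (50.2 CPM per kb), Ereg (24.8), Nrg1 (10.6), Areg (7.22) and Btc (0.265). The counts are of molecular barcodes, and whether they rise with the length of a gene was not tested. Both scales are therefore given. The exon lengths are those of every annotated transcript of a gene merged, and which Nrg1 transcripts were made cannot be read from gene counts. Nrg1 spans chr8:31814551-32884029 on the minus strand of GRCm38, Hbegf chr18:36504927-36515805 on the minus strand and Egfr chr11:16752203-16918158 on the plus strand. Exons of Nrg1 share 482 bases with Gm26578, and exons of Ereg a shorter stretch with Gm19610, both on the opposite strand and with 12 and 55 counts of their own, and whether counting used the strand is not given in the sources used here. On this scale Ereg stood above Nrg1, the reverse of their order in CPM.

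The receptors were led by Egfr with 156.6 CPM (152.8 to 160.4). Erbb2 followed with 46.7 CPM (44.7 to 48.8) and Erbb3 with 7.42 CPM (6.62 to 8.28). Erbb4 had no count in any cell, which allows a level of up to 0.0704 CPM and a share of up to 0.652% of cells with a count. Per kilobase the order was the same, with 13.8 for Egfr, 8.96 for Erbb2 and 1.23 for Erbb3. The receptor transcripts of these cells were thus nearly all Egfr and Erbb2, while the counts of the neuregulin receptors were low for Erbb3 and 0 for Erbb4.

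Cells differed in which of the genes were counted at all. Hbegf had a count in 91.7% of cells (exact Clopper-Pearson 95% interval 88.8 to 94.1) and Egfr in 89.3% (86.2 to 92.02). Erbb2 had one in 75.9%, Nrg1 in 63.3% (58.7 to 67.7) and Ereg in 61.96% (57.3 to 66.4). The shares of Nrg1 and Ereg come from the same cells, so these 2 separate intervals do not test their difference. Areg was counted in 16.96% of cells, Erbb3 in 9.35% and Btc in 3.91%. When each cell was thinned to 56586 counts, which left out 46 shallower cells, the shares were 88.4% for Hbegf, 87.7% for Egfr, 71.01% for Erbb2, 58.2% for Nrg1 and 54.6% for Ereg. Areg and Erbb3 came to 13.04% and 9.18% of thinned cells. No cell type that should lack these genes was available as a background, and all of these shares apart from those of Hbegf and Egfr lie under the 80.9% of cells with a count of the epithelial gene Sftpc.

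**Figure D1:**
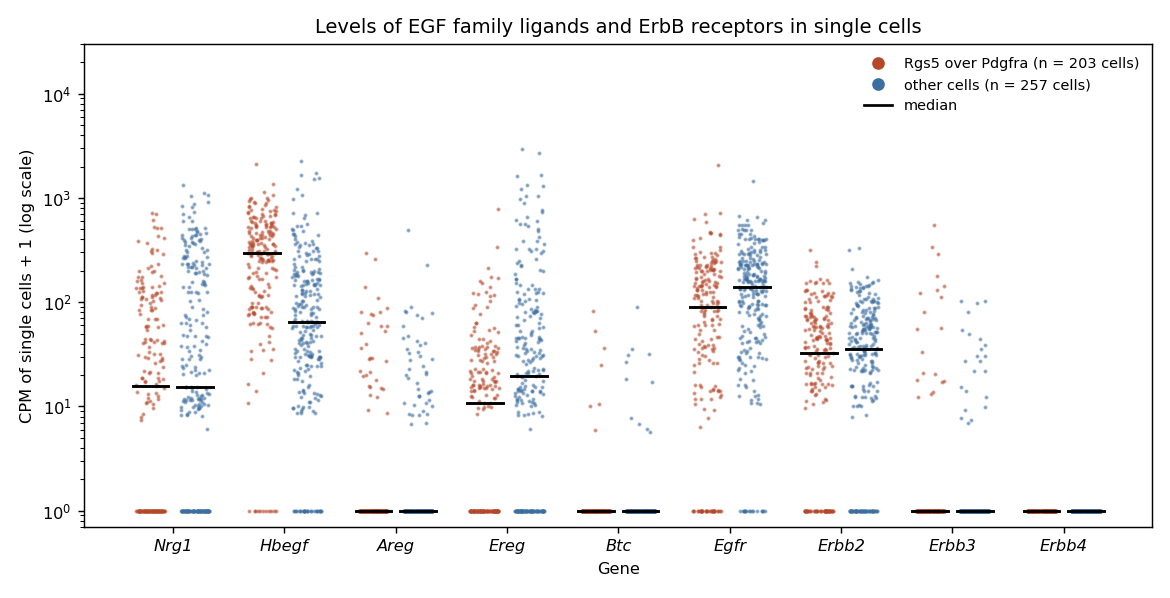
CPM of each of the 9 genes in single cells, plotted as CPM + 1 on a log axis, with 1 point per cell, cells with Rgs5 over Pdgfra at the left of each pair and the other cells at the right, and a bar at the median. Hbegf has its upper median (295.2 CPM) in cells with Rgs5 over Pdgfra against 63.4 in the others, while the Nrg1 medians are 14.5 and 14.4 and its points run from 0 to 1329 CPM.

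Nrg1 was high in part of the cells. Its median over single cells was 14.5 CPM, its upper quartile 124.1 and its highest value 1329 CPM. No count was present in 36.7% of cells, 34.1% had a level under 100 CPM and 29.1% (25.02 to 33.5) had at least 100 CPM, called high here. The 10% of cells with the highest level held 57.8% of all Nrg1 counts. The same share was 79.1% for Ereg, 39.3% for Hbegf, 30.8% for Egfr and 30.4% for Erbb2. Ereg was thus the most concentrated of the 5 genes counted in more than 25% of cells, with a median of 13.8 CPM, a highest cell of 2960 CPM and 71 high cells (15.4%). Egfr and Hbegf were each high in 55.2% of cells. The 90.1% for Areg and the 100% for Erbb3 are not set beside these, since a gene with few counts can be counted in few cells only.

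**Figure D2:**
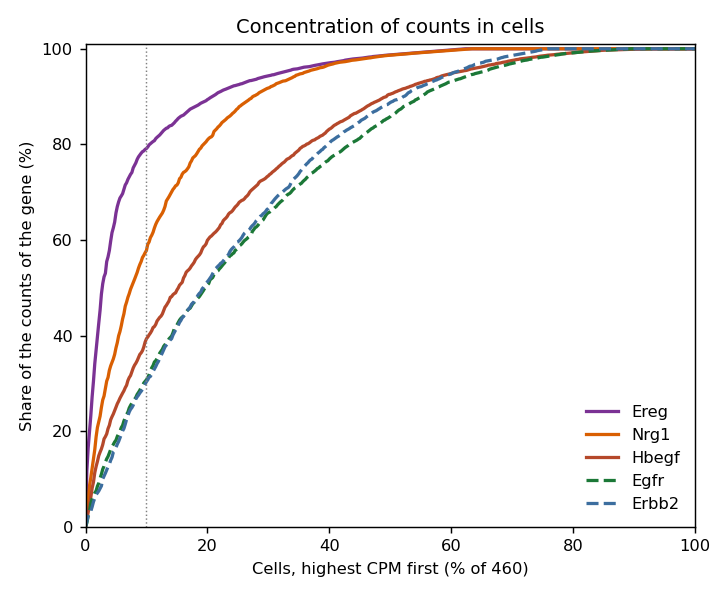
Share of a gene's counts, in percent, held by the cells with its highest CPM, taken from the highest cell downwards, for the 5 genes counted in more than 25% of cells (receptors dashed). At 10% of cells, the dotted line, Ereg stands at 79.1% and Nrg1 at 57.8%, above Hbegf at 39.3%, Egfr at 30.8% and Erbb2 at 30.4%.

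Between the sets of cells, Hbegf was higher in cells with Rgs5 over Pdgfra, and Ereg and Nrg1 were lower there. Of the 7 genes of the family with a count in at least 5% of cells, 2 (Hbegf and Erbb3) were at least 2-fold higher in cells with Rgs5 over Pdgfra and 2 (Nrg1 and Ereg) at least 2-fold lower. Over all 16524 genes with such a share, 5.58% were at least 2-fold higher and 6.79% at least 2-fold lower, and their median log2 ratio was 0.02. With 7 genes these counts say little about the family as a whole, and the account is therefore given gene by gene. In summed counts, fewer cells with a transcript and less of it per cell cannot be told apart, so shares of high cells stand beside the sums.

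Hbegf had 359.8 CPM (350.8 to 368.9) in cells with Rgs5 over Pdgfra and 165.5 CPM (160.6 to 170.6) in the others, a log2 ratio of 1.12 (counting interval 1.06 to 1.18) that stood at percentile 95.3 of all genes. Its median cell had 295.2 CPM in cells with Rgs5 over Pdgfra and 63.4 in the others. High cells made up 74.9% (68.3 to 80.7) of cells with Rgs5 over Pdgfra and 39.7% (33.7 to 45.96) of the others. The ranges overlapped, with a highest cell of 2105 CPM in cells with Rgs5 over Pdgfra and of 2272 CPM in the others. Within the columns low in Sftpc the levels were 371.3 CPM in cells with Rgs5 over Pdgfra and 228.7 in the others, a log2 ratio of 0.70 that is under 2-fold. Elsewhere they were 355.3 and 148.7 CPM, so the direction was the same in both kinds of columns.

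Ereg had 31.7 CPM (29.05 to 34.5) in cells with Rgs5 over Pdgfra and 149.1 CPM (144.4 to 153.9) in the others. Its log2 ratio of -2.24 (-2.37 to -2.10) stood at percentile 1.05 of all genes. High cells were 6.90% (3.82 to 11.3) of cells with Rgs5 over Pdgfra and 22.2% (17.2 to 27.8) of the others, whereas the medians were closer, at 9.84 and 18.5 CPM. Both medians stand for very few counts in a cell and depend on its depth. A count of Ereg was present in 53.7% (46.6 to 60.7) of cells with Rgs5 over Pdgfra and in 68.5% (62.4 to 74.1) of the others, and in 44.4% and 61.7% of thinned cells, so both the share of cells with a count and that of high cells were lower in cells with Rgs5 over Pdgfra. The levels were 18.1 and 134.8 CPM within the columns low in Sftpc, and 37.03 and 152.9 CPM elsewhere. Without the cells that had a count of Ptprc, Epcam or Pecam1 (markers of immune, epithelial and endothelial cells) the log2 ratio was -3.01, without the 10% of cells richest in epithelial markers -2.87, and without the cells rich in Hand2 and Hoxa10 -2.72. For Hbegf the same 3 subsets gave 1.25, 1.08 and 1.08.

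Nrg1 had 64.7 CPM (60.9 to 68.6) in cells with Rgs5 over Pdgfra and 139.7 CPM (135.2 to 144.4) in the others, a log2 ratio of -1.11 (-1.21 to -1.01) at percentile 5.74. The medians of the 2 sets were nearly the same, at 14.5 CPM in cells with Rgs5 over Pdgfra and 14.4 CPM in the others. With median totals of 76944 and 96654 counts, such values stand for very few counts in a cell and depend on its depth. Their closeness therefore does not show that typical levels agree. The upper part of the range differed: the upper quartile was 91.7 CPM in cells with Rgs5 over Pdgfra and 196.7 in the others, and high cells were 24.1% (18.4 to 30.6) and 33.1% (27.3 to 39.2). A count of Nrg1 was present in 57.6% (50.5 to 64.5) of cells with Rgs5 over Pdgfra and in 67.7% (61.6 to 73.4) of the others. In thinned cells these shares were 52.05% and 62.6%. The intervals of these shares overlap. As the mean of single-cell CPM the log2 ratio was -0.94, on thinned counts -0.90 and with scran size factors -0.93, so under each of these 3 the difference is less than 2-fold. Within the columns low in Sftpc the levels were 57.9 and 141.3 CPM, and elsewhere 67.4 and 139.3 CPM.

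Among the receptors, Egfr had 129.3 CPM (123.97 to 134.9) in cells with Rgs5 over Pdgfra and 174.6 CPM (169.5 to 179.7) in the others, a log2 ratio of -0.43. It was high in 47.3% of cells with Rgs5 over Pdgfra and in 61.5% of the others. Erbb2 had 46.6 and 46.8 CPM, with a log2 ratio of -0.01 (-0.14 to 0.12), and was high in 13.8% and 13.6% of cells. That interval covers counting error only and does not bound the difference between kinds of columns. In the columns low in Sftpc the Erbb2 levels were 36.4 CPM in cells with Rgs5 over Pdgfra and 47.3 in the others. Elsewhere they were 50.6 and 46.6 CPM.

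Erbb3 had 12.7 CPM (11.04 to 14.5) in cells with Rgs5 over Pdgfra and 3.94 CPM (3.21 to 4.78) in the others, a log2 ratio of 1.69 (1.34 to 2.04). The share of cells with a count was 9.85% in cells with Rgs5 over Pdgfra and 8.95% in the others, so the ratio came from the size of the counts in few cells. There were 10 cells with at least 100 CPM of Erbb3, 8 of them with Rgs5 over Pdgfra. Without these 10 cells the log2 ratio was -0.76. As these cells were picked by their Erbb3 level and most were in 1 set, a fall of the ratio was fixed in advance. Most of these 10 cells were rich in the 12 epithelial or lung tumour markers. The sum of the markers had a median of 7825 CPM in them (range 12.7 to 24889) and all 12 were counted in the median cell. At least 2 of the markers were counted in 90% of the 10 cells, but also in 76.7% of the other 450 cells. In the 43 cells with an Erbb3 count the sum had a median of 1522 CPM (range 12.7 to 25812), against 640.7 CPM (range 0 to 6749) in the cells without one. In the columns low in Sftpc 1.57% of cells had an Erbb3 count, against 12.3% elsewhere. By whole sets, the summed markers had a median of 757.4 CPM (range 0 to 24889) in cells with Rgs5 over Pdgfra and of 636.3 CPM (range 0 to 25812) in the others, none of the 12 was at 0, and 7 of the 12 were at least 2-fold higher in cells with Rgs5 over Pdgfra. The part of such RNA in the Erbb3 counts was not tested beyond these values.

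Areg had a Spearman correlation of 0.20 with the score of the epithelial markers, and Erbb3 of 0.25. Areg had 10.6 CPM (9.12 to 12.3) in cells with Rgs5 over Pdgfra and 7.56 CPM (6.54 to 8.70) in the others, a log2 ratio of 0.49. That direction did not hold throughout: the log2 ratio was -0.55 without the cells with a count of Ptprc, Epcam or Pecam1, -0.11 on thinned counts, -0.27 without the cells high in Erbb3, -0.36 without the 10% of cells richest in epithelial markers and 0.05 without the cells rich in Hand2 and Hoxa10. The order was the reverse in the columns low in Sftpc, with 0.62 CPM in cells with Rgs5 over Pdgfra, from 3 counts, and 10.5 CPM in the others. Elsewhere it was 14.6 and 6.77 CPM. Areg was counted in 7.09% of cells in the columns low in Sftpc and in 20.7% elsewhere. The summed epithelial markers had a median of 842.8 CPM in the 78 cells with an Areg count and of 635.7 CPM in those without. Btc had 1.24 and 1.17 CPM, from 21 and 30 counts, so a difference was not detectable at this depth.

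**Figure D3:**
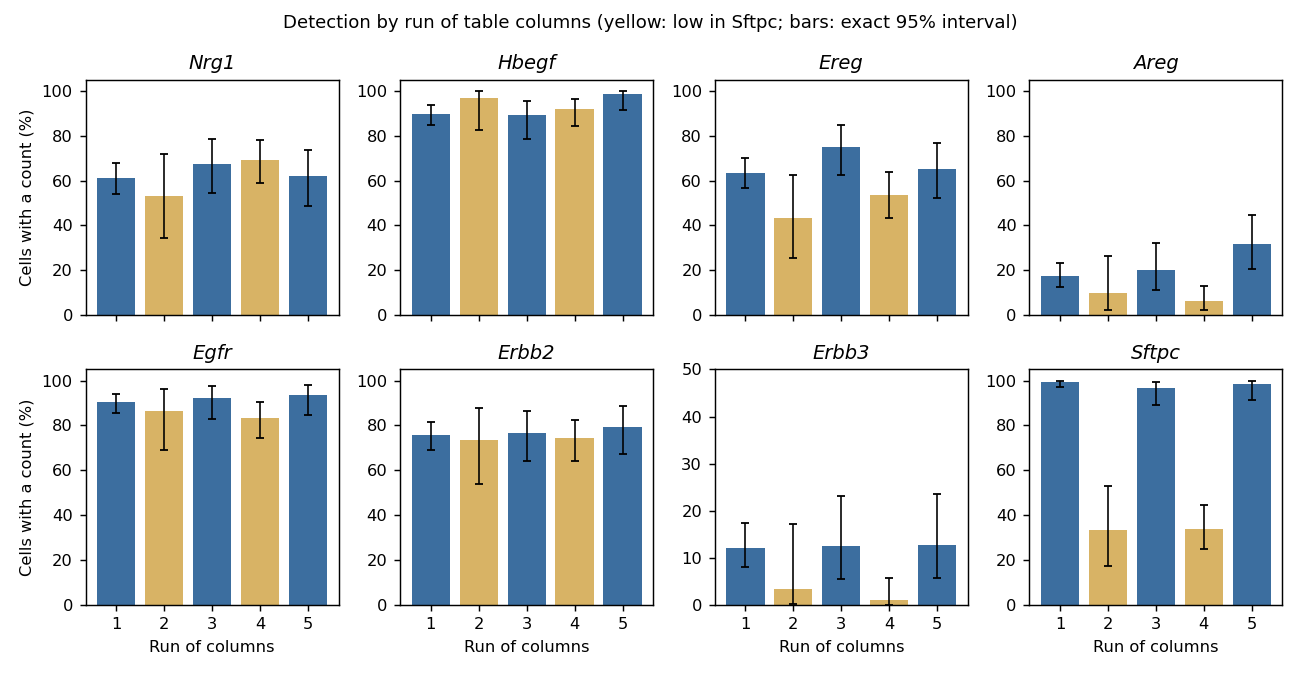
Percent of cells with a count, with exact 95% intervals, in the 5 runs of neighbouring table columns, for 7 of the genes and for Sftpc (the axis of Erbb3 ends at 50%). In the yellow runs 2 and 4, low in Sftpc, Erbb3 was counted in 3.33% and 1.03% of cells and Areg in 10% and 6.19%, whereas Hbegf stayed between 89.1% and 98.4% over all 5 runs.

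The ligands were not counted in the same cells more than loosely. Over the 460 cells the Spearman correlations between the genes, for the 28 pairs with counts of both, lay between -0.10 (Hbegf with Ereg) and 0.09 (Nrg1 with Egfr). All points share the same libraries and their depth, and in sparse counts such values are no finding. On log-transformed scaled counts the Pearson correlation of Areg with Ereg was 0.29, while their Spearman correlation was 0.09. These 2 genes lie close to each other on chromosome 5 (GRCm38, Ereg at chr5:91074622-91093646 and Areg at chr5:91139599-91148432, both on the plus strand), and 50 cells had counts of both. Btc, with 51 counts, lies nearby at chr5:91357261-91402994, and its Spearman correlations were -0.03 with Areg and 0.08 with Ereg. A part of position in these values was not tested.

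Of the abundant ligands Nrg1, Hbegf and Ereg, none was high in 27.2% of cells, 1 in 49.3%, 2 in 20% and all 3 in 3.48%, which was 16 cells. Single cells with Rgs5 over Pdgfra had exactly 1 high ligand in 58.6% of cases and none in 18.2%, against 42.02% and 34.2% of the other cells. Egfr was high in 67.2% (58.5 to 75.03) of the cells high in Nrg1, against 50.3% (44.7 to 55.9) of the remaining cells. Hbegf was high in 63.4% (54.7 to 71.6) of the cells high in Nrg1, against 51.8% (46.3 to 57.4) of the remaining cells, intervals that overlap. For Ereg the shares were 17.2% and 14.7%.

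The cells high in Nrg1 were not those of 1 set. Cells with Rgs5 over Pdgfra made up 36.6% (28.4 to 45.3) of the cells high in Nrg1, 43.3% (35.4 to 51.4) of the cells with lower Nrg1 and 50.9% (43.1 to 58.6) of the cells without a count. Their median totals, 86140 counts in cells high in Nrg1 and 87133 in cells without a count of Nrg1, were close. The columns low in Sftpc held 30.6% of the cells high in Nrg1 and 26.04% of those without a count.

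The 5 genes with levels most like those of Nrg1, by Spearman correlation over the 460 cells among 13975 genes with a count in at least 10% of cells, were Htra1, a secreted serine protease gene (0.35), Pla2g7, for a secreted phospholipase (0.34), Zfp536, for a zinc finger protein (0.33), Tbx3, for a T-box transcription factor (0.31), and Prss12, for a serine protease (0.31). Htra1 had 997.3 CPM in cells high in Nrg1, 608.3 in cells with lower Nrg1 and 381.7 in cells without. Tbx3 had 552.1, 423.8 and 311.3 CPM in the same order of Nrg1 classes, and Zfp536 had 55.5, 23.3 and 16.1 CPM. The correlation of Htra1 with Nrg1 was 0.36 among cells with Rgs5 over Pdgfra and 0.34 among the others, and that of Prss12 was 0.39 and 0.27. All 5 had positive correlations with Nrg1 inside each set of cells. They were picked as the highest of 13975 genes in these same cells, so their correlations and class levels are high by selection. No other cells were there to check them, and the same holds for the genes most like Hbegf and Ereg below. Those that ran against Nrg1 most were Slc7a2 (-0.30), Sort1 (-0.28) and Serpine2 (-0.28).

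Hbegf had the closest companions of the family. The 5 most like it were F2r, the gene for thrombin receptor PAR1 (0.57), Gucy1a3 (0.56) and Gucy1b3 (0.54), the subunits of the nitric oxide receptor guanylate cyclase, Mcam, an adhesion molecule gene and one of the pericyte markers (0.56), and Pdzd2 (0.55). The correlations were lower inside each set: F2r reached 0.54 among cells with Rgs5 over Pdgfra and 0.28 among the others, and Mcam 0.35 and 0.33. Gucy1a3 had 2101.8 CPM in cells high in Hbegf, against 671.5 CPM in cells without a count of Hbegf. With the mean score of the 9 pericyte markers Hbegf had a correlation of 0.52, and with that of the 8 fibroblast markers -0.42. Pcdh7 (-0.49), Igfbp4 (-0.45) and Cxcl14 (-0.45) ran against it most.

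Ereg was most like Lif, the gene of a cytokine of the interleukin 6 family (0.35), Thbs1, for thrombospondin 1 (0.33), Cxcl14, a chemokine gene (0.31), Tnfaip3, an inhibitor of NF-kappa-B signalling (0.31), and Thsd4 (0.31). Lif had 585.8 CPM in the 71 cells high in Ereg, against 70.3 CPM in the cells without a count of Ereg. Thbs1 had 3669 and 1713 CPM, and Tnfaip3 had 1020.5 and 362.99 CPM. Among cells with Rgs5 over Pdgfra the correlation with Lif was 0.20, and among the others 0.38. Of the cells high in Ereg, 19.7% had Rgs5 over Pdgfra. Their summed counts gave 1674 CPM of Dcn, against 660.6 CPM in cells without an Ereg count, and 1049.1 CPM of Acta2, the smooth muscle actin gene, against 399.8. The median total was 101975 counts in cells high in Ereg and 79456 in cells without a count, so depth moved with these classes, and its part was not tested. The classes also differ in their mix of the 2 sets. A count of Ereg was present in 53.7% of cells with Rgs5 over Pdgfra and in 68.5% of the others. The part of this mix in the levels of Dcn, Acta2 and the other genes was not tested.

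The closest gene to Egfr reached only 0.24 (Ssc5d, with Fndc3b, Stt3a and Slit2 at the same rounded value and Mrc2 at 0.22) and the closest to Erbb2 only 0.18. These weak values are no finding.

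**Figure D4:**
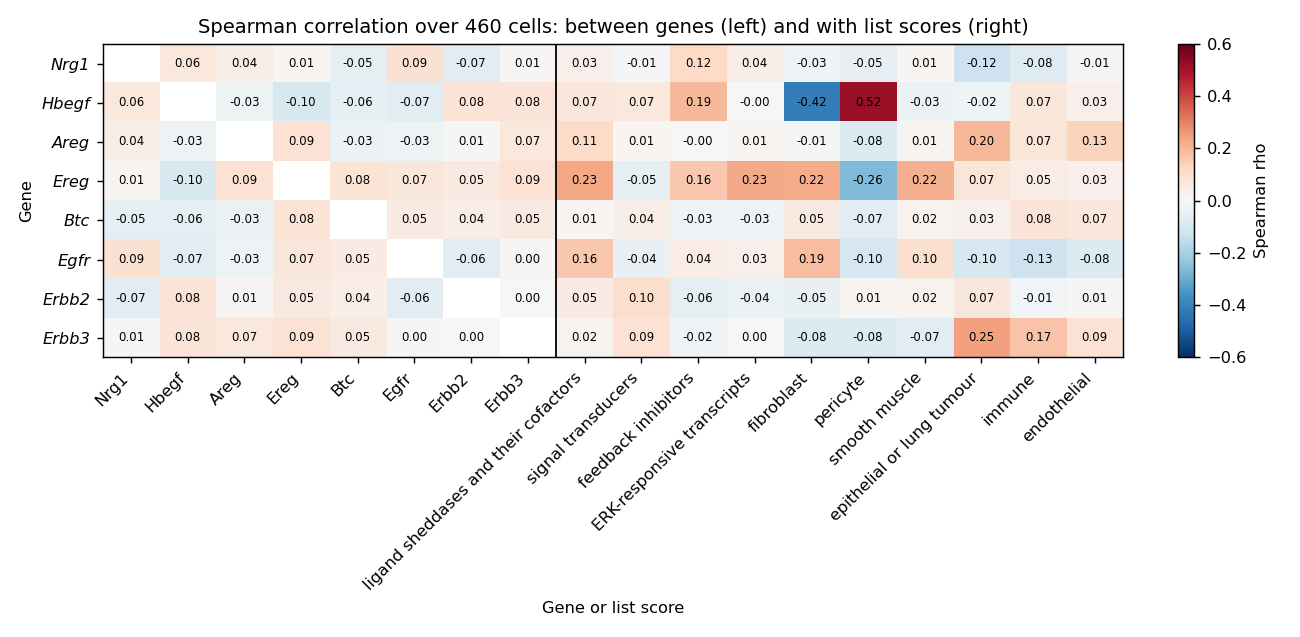
Spearman correlation over 460 cells between the 8 genes of the family with a count (left of the line) and of each with the mean score of a gene list (right of the line), on a colour scale from -0.6 to 0.6. The values between the genes lie between -0.10 and 0.09, and the strongest cells of the plot are Hbegf with the pericyte score (0.52) and with the fibroblast score (-0.42).

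Around the ligands and receptors, the remaining family members were scarce. Tgfa, the gene for transforming growth factor alpha, had 4.46 CPM and a count in 11.3% of cells, and Nrg4 had 1.67 CPM and 6.30%. Epgn had 0.798 CPM, Egf 0.704 CPM and Nrg2 0.610 CPM, and Nrg3 had no count. Tgfa had 4.42 CPM in cells with Rgs5 over Pdgfra and 4.48 in the others.

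Genes of the machinery that releases the ligands ranged from a count in 11.1% of cells (Adam8) to one in every cell (Adam19 and Cd44). All 11 sheddases and cofactors were counted in at least 5% of cells, and none differed by 2-fold between the sets, with a median log2 ratio of 0.08. Over all genes only 5.58% were at least 2-fold higher and 6.79% at least 2-fold lower. To find none among 11 genes is thus near the background and says little about the list. The most abundant was Adam19 (648.7 CPM), a metalloprotease for which neuregulin is a known substrate. It had 488.2 CPM in cells with Rgs5 over Pdgfra and 754.7 in the others. Cd44, a receptor that can hold HB-EGF at the surface, followed with 466.7 CPM and Adam10, a general sheddase, with 183.5 CPM. Adam17, the main sheddase of several EGFR ligands, had 87.4 CPM in cells with Rgs5 over Pdgfra and 74.3 in the others. The highest ratios of the list were those of the scarce metalloproteases Adam8 (7.90 and 4.44 CPM) and Adam12 (12.9 and 8.38 CPM) and of the tetraspanin Cd9 (73.2 and 54.2 CPM), and Rhbdf2, a partner of ADAM17, was among the lowest (28.7 and 38.8 CPM). Ereg had a correlation of 0.23 with the score of this list and Hbegf of 0.07.

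None of the 18 signal transducers differed by 2-fold either, with a median log2 ratio of 0.12. Beside the shares of 5.58% and 6.79% over all genes, this says little about a list of this size. Shc1 (345.8 CPM), Pik3r1 (316.4 CPM) and Stat3 (268.9 CPM) were the most abundant. Gab1, a docking protein downstream of EGFR, had the highest ratio, with 285.7 CPM in cells with Rgs5 over Pdgfra and 154.9 in the others (log2 ratio 0.88). Sos1, a RAS exchange factor, had the lowest, with 80.1 and 113.7 CPM (-0.51).

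Among the 15 feedback inhibitors 1 was at least 2-fold lower and none at least 2-fold higher, with a median log2 ratio of -0.18. As 6.79% of all genes were at least 2-fold lower, 1 of 15 is near the background and says nothing about the list. That gene was Errfi1, whose product binds and inhibits EGFR, with 151.3 CPM in cells with Rgs5 over Pdgfra and 339.3 in the others (-1.17). Spry1, an inhibitor of receptor tyrosine kinase signalling, missed the 2-fold limit by little, with 339.04 and 677.9 CPM. Its relatives Spry2 (66.9 and 86.7 CPM, log2 ratio -0.38) and Spry4 (590.7 and 553.5 CPM, 0.09) differed less between the sets. Dusp1, a MAP kinase phosphatase gene and the most abundant of the list, had 1581.4 and 1525.4 CPM, while Dusp4 (62.5 and 40.5 CPM) and Dusp5 (240.4 and 158.6 CPM) had the largest ratios upward. Cbl, a ubiquitin ligase for EGFR, had 383.4 and 292.1 CPM, and Lrig1, another inhibitor of ErbB receptors, 26.3 and 39.5 CPM.

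Of the 15 transcripts known to respond to ERK none differed by 2-fold, and the median log2 ratio was -0.30. With 5.58% of all genes at least 2-fold higher and 6.79% at least 2-fold lower, that count also says little. Fos (2188.2 CPM in cells with Rgs5 over Pdgfra and 2057.9 in the others), Fosb (1724.1 and 1834.0 CPM) and Egr1 (1109.3 and 1353.1 CPM) were the most abundant. The lowest ratios were those of Ccnd1, for cyclin D1 (180.2 and 348.2 CPM), Egr2 (82.6 and 158.8 CPM) and Egr3 (19.6 and 36.6 CPM), and the highest that of Myc (205.2 and 160.99 CPM). Over single cells the score of these transcripts had a correlation of 0.23 with Ereg, 0.04 with Nrg1 and -0.0034 with Hbegf.

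**Figure D5:**
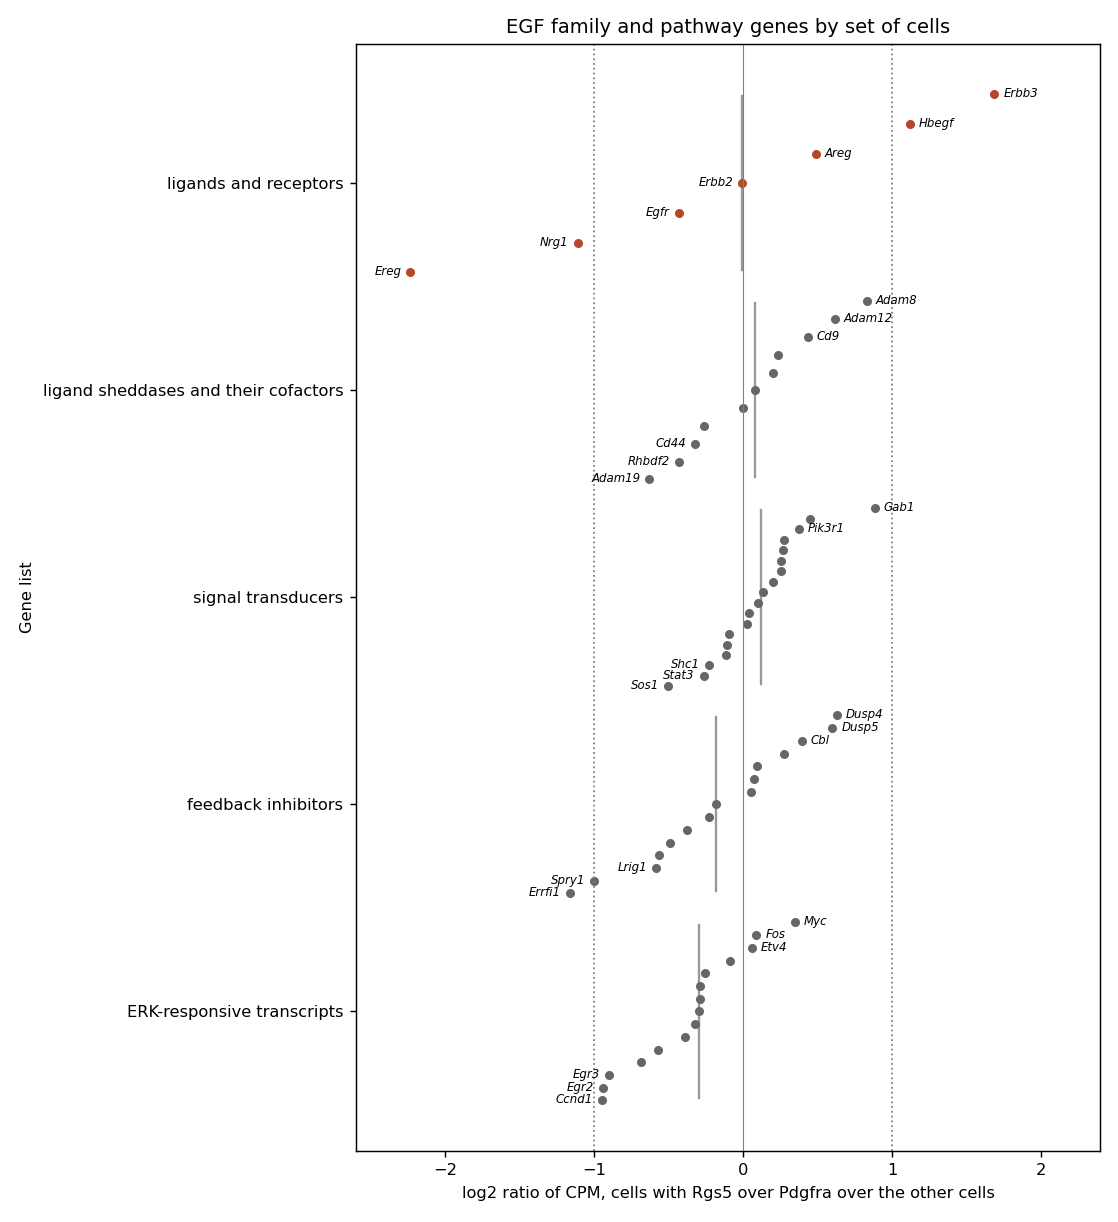
Log2 ratio of CPM in cells with Rgs5 over Pdgfra over the other cells, for the 7 ligand and receptor genes and the members of 4 pathway lists, with 1 point per gene, a grey bar at each list's median and dotted lines at 2-fold. Ereg, Nrg1, Hbegf and Erbb3 lie outside the lines, and of the pathway genes Errfi1 (-1.17) does.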

How the data were processed

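The data are single-cell RNA-seq of 460 cells in 1 group. The authors deposited 1 table of unnormalized counts of molecular barcodes, made with STAR, HTSeq and mm10 per the submitters' processing notes, which give no versions or settings. No column belonged to other samples and no 2 columns were identical. Gene symbols come from the table (113 symbols occur more than once, and each went to its most counted gene), and coordinates and exon lengths from GENCODE vM21 (GRCm38), which matched 48058 of 48440 identifiers.

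CPM of a set is the summed count of a gene scaled to 1000000, with exact Poisson 95% intervals. Shares have Clopper-Pearson 95% intervals and ratios exact conditional ones, with no count taken as a floor of 3. Intervals of levels and ratios cover counting error only, and those of shares treat cells as independent draws. All cells were kept, no doublet caller was run, and 1 alternative dropped the most counted 5% of cells. List scores are means of standardized levels over members counted in at least 10% of cells.

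The genes, lists and marker lists were chosen with earlier results of these data known. Named genes are the 9 of the family, the 3 most abundant and the 3 highest and lowest ratios of each pathway list, and the 5 genes most like each gene counted in at least 25% of cells. Some items that the rule or the labels name are not reported here. Spry2, Spry4, Adam17, the genes that ran against a ligand, and the markers named were chosen after their values were seen. A column was taken as low in Sftpc if over 50% of its 20 neighbours held less than 30 CPM, a split made on these data. Other alternatives used thinned counts, means of single-cell CPM, scran 1.30.0 size factors (R 4.3.3), other limits and subsets of cells. Leaving out cells rich in Hand2 and Hoxa10, high in Erbb3 or richest in epithelial markers was added after seeing the data. Software was scipy 1.17.1, numpy 2.4.6, matplotlib 3.10.9 and pandas 2.3.3 under Python 3.11.15, and the steps were tested on simulated data.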

Additional observations from a re-analysis of the deposited data

How the results depend on the processing

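The ratios of Hbegf, Ereg, Nrg1 and Egfr kept their direction under all 12 alternatives that recompute a ratio, with Ereg between -3.01 and -2.05 and Hbegf between 0.70 and 1.27 on the log2 scale. Of 95 recomputed ratios, 60 were within the counting interval, and 33 moved outside it without reversing a ratio of at least 2-fold. Such a reversal occurred in 2, both of Erbb3: -2.15 in the columns low in Sftpc, from 6 counts, and -0.76 without the cells with at least 100 CPM of Erbb3. The second left out cells by their Erbb3 level, so a fall of that ratio was fixed in advance. Ratios under 2-fold also changed sign: Areg under 5 alternatives, with values between -4.08 and 1.11, and Btc and Erbb2 under 2 each, between -0.19 and 0.51 and between -0.38 and 0.12. The genes at least 2-fold higher numbered 3 without the columns low in Sftpc, where Areg reached a log2 ratio of 1.11. They numbered 0 in the columns low in Sftpc and 1 without the cells high in Erbb3 or without the 10% of cells richest in epithelial markers. The genes at least 2-fold lower numbered 4 in the columns low in Sftpc, and 1 with means of single-cell CPM, thinned counts or scran size factors, where Nrg1 had a log2 ratio of -0.94, -0.90 and -0.93. It had -1.29 in the columns low in Sftpc and -1.36 without cells with a count of Ptprc, Epcam or Pecam1. The 10% of cells with the most Nrg1 held 53.7% of its counts in the columns low in Sftpc and 54.1% after thinning. The top 5% and top 20% held 37.4% and 80.9%. Nrg1 was counted in 58.2% of thinned cells, and 47.4% of cells had at least 2 counts. All recomputed correlations but 8 stayed within 0.1. Btc rests on 51 counts and Erbb4 on 0, so their differences were not detectable at this depth. The causes were not tested. No paired analysis was possible because there is 1 group and no test.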
